A study of Mus musculus with 12 samples.

Results

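TET2 binding sites were described at 54 mouse genes of histone-modifying enzymes, out of 21887 protein-coding genes on chromosomes 1 to 19, X and Y. The genes were chosen by symbol: all protein-coding RefSeq genes whose symbol begins with Kdm, Kmt, Hdac or Setd and a digit, Kat2a, Kat2b, Kat5, Kat6a, Kat6b, Kat7 and Kat8, and the coactivator genes Ep300 and Crebbp. The symbols alone set membership, although the group was proposed with earlier results of these data known. Each TET2 site was given to the gene whose start or end lay nearest to the midpoint of the site, within 100 kb. By this rule the 54 genes held 18 of the 6895 sites in the list of acute myeloid leukemia (AML) cells and 78 of the 18822 sites in the list of myeloid cells.

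The sites came from chromatin immunoprecipitation sequencing (ChIP-seq), in which DNA fragments crosslinked to a protein are recovered with an antibody and sequenced. TET2 oxidizes 5-methylcytosine, and the title of the study asks about its binding at enhancers. All cultures grew in stem cell factor, interleukin 3 and interleukin 6. The myeloid cells were immortalized mouse blood cells, all carrying the MigR1-AML1-ETO retroviral transgene, with the genotype Tet2fl/fl; AML1-ETO (called wild type) or Tet2-/-; AML1-ETO. The AML cells carried no transgene and had the genotype Npm1+/cA; Fl3+/ITD (wild type for Tet2) or Npm1+/cA; Fl3+/ITD; Tet2-/-. Each cell type contributed 2 wild-type and 2 knockout libraries made with an antibody to the N-terminal part of TET2, 1 input library and 1 IgG library, 12 in all. The files hold 1 list of positions per cell type, with no value per library. A site therefore has no height, no replicate error and no known read depth, and wild-type and knockout signal could not be set side by side. Whether the cultures were clones, and which cell surface or lineage markers they carried, was not found in those labels. The AML list is the shorter of the 2, and with no depth or score a gene without an AML site cannot be told apart from one whose signal fell under that list's threshold.

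As a class, the enzymes named here place or remove chemical groups on the histone proteins that package DNA. The genes were taken by symbol, and whether each product acts on histones was not checked. Acetyltransferases (the Kat enzymes, p300 and CBP) add acetyl groups to lysines, which is typical of active promoters and enhancers, and deacetylases (Hdac) take them off. Lysine methyltransferases (Kmt, Setd) add methyl groups and demethylases (Kdm) remove them. Depending on the lysine, methylation marks active promoters, primed enhancers, transcribed gene bodies or silent chromatin. Several of these genes, among them KMT2A, KAT6A, CREBBP, EP300 and KDM6A, are rearranged or mutated in human leukemia.

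More of these genes had a TET2 site in the myeloid list than in the AML list. At least 1 myeloid site was found at 38 of the 54 (70.4%, exact Clopper-Pearson 95% interval 56.4 to 82.0), beside 40.0% of all protein-coding genes. In the AML list 12 had a site (22.2%, 12.0 to 35.6), beside 18.6% of all genes. When non-coding genes also competed for sites, 6 had an AML site (11.1%, beside 12.7%) and 31 a myeloid site (57.4%, beside 32.9%). The AML share was thus close to the background, and the myeloid share lay above it. All 12 genes with an AML site also had a myeloid site, so 0 had an AML site alone, beside 2.03% of all genes. A further 26 had a myeloid site alone, and 16 had none in either list. Over all protein-coding genes, 16.6% had a site in both lists and 57.9% in neither. At least 3 myeloid sites were found at 10 of the 54 genes, beside 9.02% of all genes, and at least 2 AML sites at 5, beside 5.83%. These intervals cover counting over genes only, and no test was made of the list as a whole.

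The 54 genes are longer than most. Their median length was 46.1 kb, against 17.2 kb for all protein-coding genes, and their median territory was 75.5 kb, against 46.4 kb. A territory is the sequence nearer to an end of that gene than to any other gene's, within 100 kb. If sites fell evenly over all territory, 17.9 AML sites and 50.5 myeloid sites would be expected at these genes. The observed numbers were 18 and 78, or 1.00 and 1.54 times the expectation. Per Mb of territory that is 3.60 AML sites, against 3.58 for all genes, and 15.6 myeloid sites, against 10.1.

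**Figure D1:**
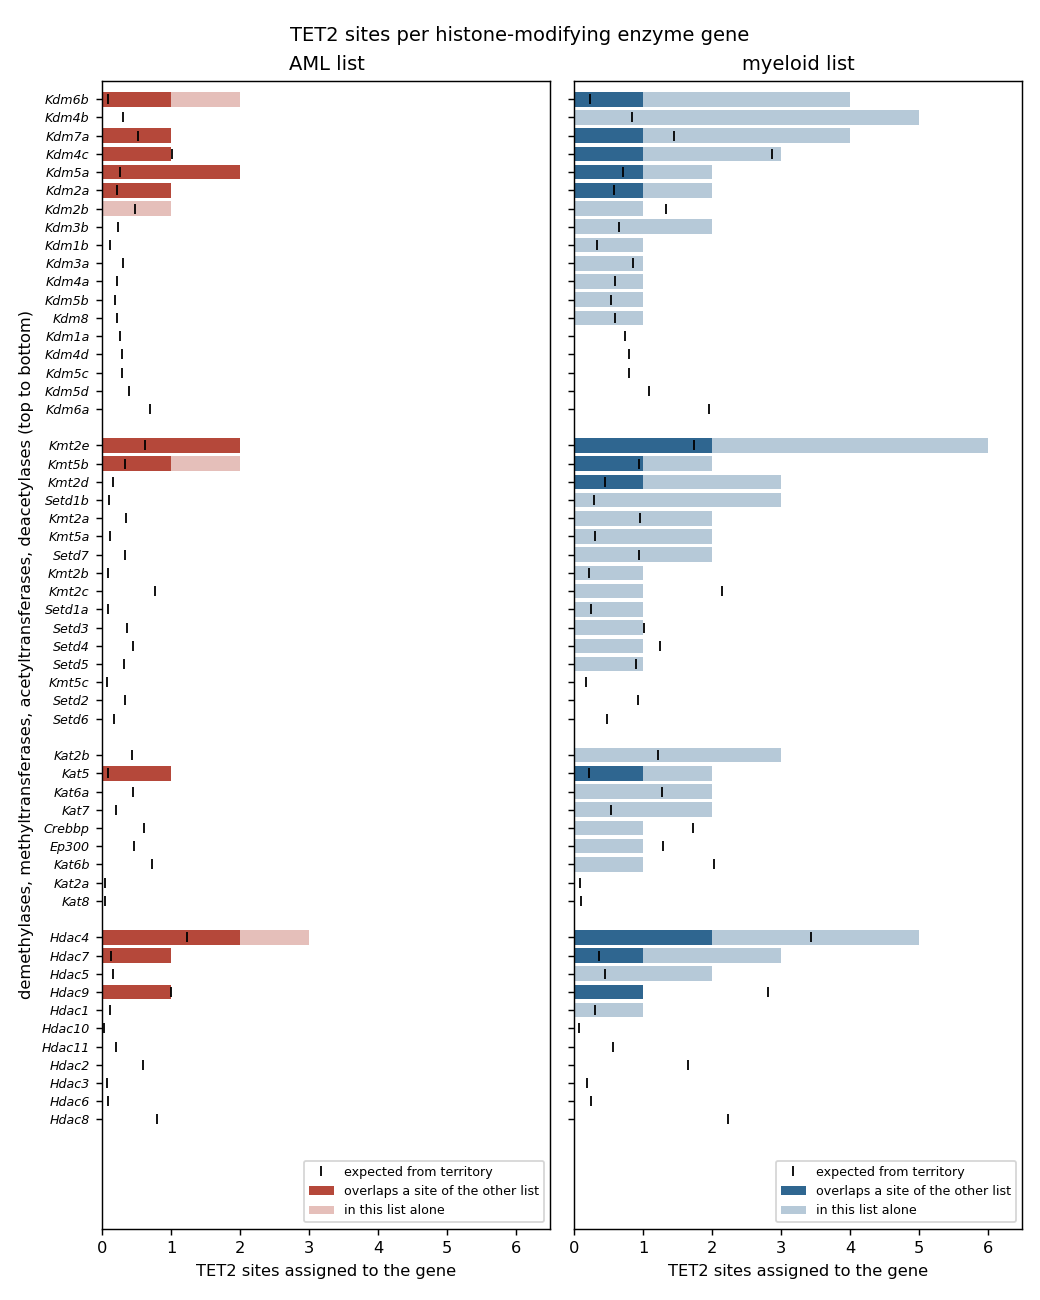
TET2 sites assigned to each of the 54 genes in the AML list (left, red) and the myeloid list (right, blue), grouped by enzyme role. Bars give the number of sites, dark where a site overlaps one of the other list and pale where it does not; black ticks give the number expected from the gene's territory. Myeloid bars reach 6 sites at Kmt2e, and AML bars reach 3 at Hdac4.

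The roles differed in how many members carried a site. Over all protein-coding genes, 40.0% had a myeloid site and 18.6% an AML site. Among the 18 demethylase genes 13 had a myeloid site and 6 an AML site (72.2% and 33.3%). Among the 16 methyltransferase genes the numbers were 13 and 2, among the 9 acetyltransferase genes 7 and 1, and among the 11 deacetylase genes 5 and 3. In sites over expectation the myeloid list gave 2.02 for methyltransferases, 1.66 for demethylases, 1.42 for acetyltransferases and 0.977 for deacetylases. In the AML list the same ratios were 0.874, 1.34, 0.333 and 1.15. With 1 to 8 AML sites per role, the order of the roles in that list rests on single sites. The intervals of the roles overlapped in both lists, and differences between roles were not tested.

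**Figure D2:**
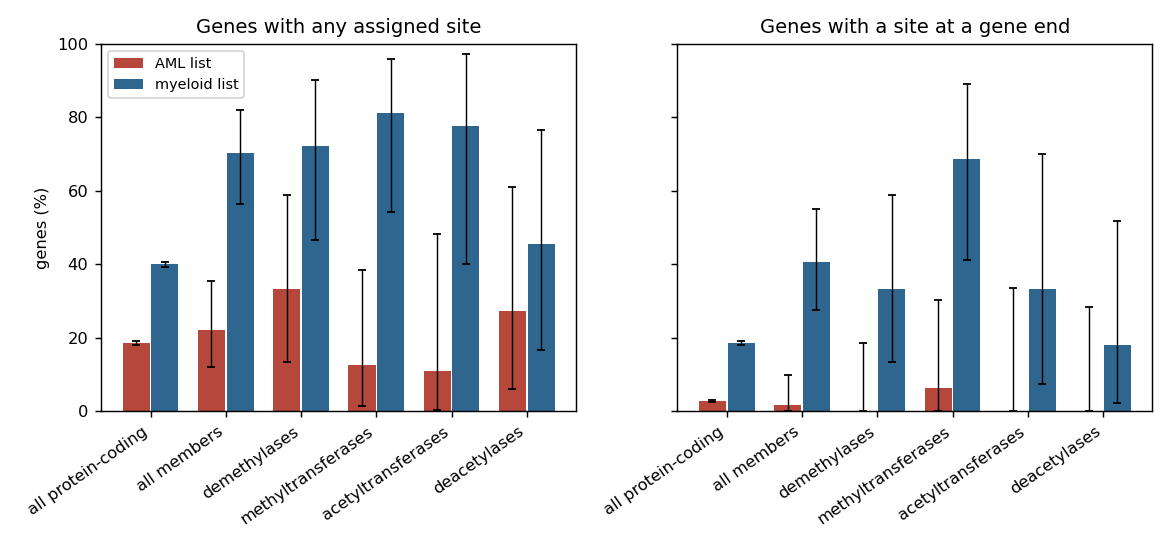
Percent of genes with any assigned TET2 site (left) and with an assigned site within 1 kb of a gene end (right), for all protein-coding genes, all 54 member genes and each role. Red bars are the AML list and blue bars the myeloid list; whiskers are exact Clopper-Pearson 95% intervals over genes. Methyltransferase genes have a myeloid site at a gene end in 68.8% of cases, against 18.6% of all genes.

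Kdm6b had the most sites of any demethylase gene, counted over both lists. Its product, JMJD3, removes methyl groups from H3K27 and is known from macrophage activation. The gene lies on chromosome 11 from 69398508 to 69420367 and is 21.9 kb long. It held 2 AML sites (69409137 to 69409805 and 69413880 to 69414789) and 4 myeloid sites (exact Poisson 95% interval 1.09 to 10.2), where 0.0796 and 0.224 were expected from its small territory. All 6 lay inside the gene, between 1.40 and 10.9 kb from its nearer end, and none was at an end. The second AML site overlapped a myeloid site, and the first, although not shared, ended 371 bp from the nearest myeloid site.

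Kdm4b, an H3K9 demethylase gene on chromosome 17, showed the other extreme. It had 5 myeloid sites (1.62 to 11.7), where 0.842 were expected, and 0 AML sites (0.299 expected). One of them, at 56325220 to 56325887, lay 417 bp from a gene end. Of the others, 3 lay inside the gene, 2.33 to 17.7 kb from that same end, and 1 lay 2.33 kb beyond the far end. Kdm7a, which encodes a demethylase of H3K9 and H3K27, had 4 myeloid sites (1.45 expected) and 1 AML site (0.514 expected). A myeloid site covered its start and a second lay 1.37 kb inside. The AML site, 24.1 kb upstream of the start at 39230451 to 39231243 on chromosome 6, overlapped a myeloid site. The fourth myeloid site was 58.1 kb upstream.

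Among the other demethylase genes, sites shared by both lists lay outside the gene. Kdm5a, an H3K4 demethylase gene, had 2 AML sites. Both overlapped 1 wide myeloid site of 1408 bp on chromosome 6 (120452185 to 120453593), about 8 kb beyond an end of the gene. Its second assigned myeloid site lay 6.61 kb outside the gene, within Ccdc77. A further myeloid site lay within 1 kb of an end of Kdm5a but was counted for a nearer gene. Kdm2a, which encodes an H3K36 demethylase with a CpG-binding domain, had 1 AML site 10.5 kb outside the gene, matched by a myeloid site, and a further myeloid site inside. Kdm4c, a paralog of Kdm4b, had 1 AML site that lay 70.2 kb past the end of the gene and was matched by a myeloid site, while 2 further myeloid sites were in the gene body. Kdm2b, a paralog of Kdm2a, was the 1 member with a site in both lists and none in common. Its AML site lay 5.37 kb upstream of the start and its myeloid site 37.5 kb inside the gene. Kdm3b had 2 myeloid sites, and Kdm1b, Kdm3a, Kdm4a, Kdm5b and Kdm8 had 1 each. In Kdm1b, Kdm3a, Kdm3b and Kdm8 an assigned site lay within 1 kb of a gene end.

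Kmt2e carried more sites than any other methyltransferase gene and, with Hdac4, the most of all 54. It encodes MLL5, a SET domain protein required for normal blood stem cell function. The gene spans chromosome 5 from 23433036 to 23504235. Assigned to it were 2 AML sites (0.618 expected) and 6 myeloid sites (2.20 to 13.1; 1.74 expected), and both AML sites were shared. One AML site, at 23432544 to 23433316, covered the lower-coordinate end of Kmt2e. Among the AML sites assigned to the 54 genes, it was the 1 site within 1 kb of an end. A myeloid site of 860 bp lay over the same end. The second shared pair lay 22.7 kb outside that end. The 4 remaining myeloid sites lay 1.35 kb inside the gene and 46.0, 62.3 and 82.8 kb outside it, the 2 farthest within the body of the neighbouring kinase gene Srpk2.

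Most other methyltransferase genes had 1 or 2 myeloid sites, placed at an end, and no AML site. Kmt2a, whose human counterpart is rearranged in leukemia as MLL, had 1 site over its start (chromosome 9, 44881155 to 44881908) and 1 at 13.5 kb inside. Kmt2b, Kmt2c, Setd1a, Setd3, Setd4 and Setd5 each had a single myeloid site, which in every case lay within 1 kb of a gene end. The Setd5 site was the widest of all 78, at 1909 bp (chromosome 6, 113075846 to 113077755). The Setd3 site also lay within 1 kb of an end of the neighbouring gene Ccnk. Kmt5a, the methyltransferase gene of H4K20 monomethylation, had 1 site at its start and 1 centred 5.36 kb further in, over an inner annotated start. Setd7, an H3K4 monomethyltransferase gene, had 1 site 973 bp inside its start and 1 near its end.

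Setd1b, Kmt5b and Kmt2d departed from that pattern. Setd1b, which encodes an H3K4 methyltransferase, had 3 myeloid sites (0.286 expected), all inside the gene and 3.36 to 9.22 kb from the same end. Kmt5b, a gene of H4K20 di- and trimethylation, had 2 AML sites in its body, of which 1 was matched in the myeloid list, and a second myeloid site 14.7 kb past its end. Kmt2d, which encodes an H3K4 methyltransferase of enhancers, had 3 myeloid sites (0.448 expected). One of them, 1081 bp wide, lay at its 3′ end within 1 kb of an end of Prkag1 and overlapped an AML site. That AML site counted for another gene by the nearest-end rule, so Kmt2d is listed with 0 AML sites.

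Acetyltransferase genes were occupied mostly in the myeloid list. Kat5, which encodes TIP60, was the 1 gene of this role with an AML site. That site was the widest of the 18, at 1040 bp (chromosome 19, 5619765 to 5620805), lay 8.73 kb upstream of the start and overlapped a myeloid site. A second myeloid site was centred 1.52 kb into the gene, over an inner annotated start. Kat2b, which encodes the coactivator PCAF, had 3 myeloid sites (1.22 expected), all inside the gene and none at an end. Kat6a and Kat7, which encode MYST family enzymes, had 2 myeloid sites each, 1 within 1 kb of an end and 1 inside the gene. Kat6b, a paralog of Kat6a, had 1 site inside, 18.5 kb from its end. The paralogs Ep300 and Crebbp, which encode p300 and CBP, had 1 myeloid site each, where 1.28 and 1.71 were expected. The Ep300 site lay 909 bp upstream of the start and the Crebbp site 84.8 kb inside the gene.

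Among deacetylase genes, the class IIa genes Hdac4, Hdac5, Hdac7 and Hdac9, whose products shuttle between cytoplasm and nucleus, held all 5 AML sites and 11 of the 12 myeloid sites. They also held most of the territory of this role, with 2.50 AML and 7.04 myeloid sites expected. Hdac4, on chromosome 1 from 91928779 to 92195702, had 3 AML sites (0.619 to 8.77; 1.22 expected) and 5 myeloid sites (1.62 to 11.7; 3.44 expected), with 2 in common. One common pair lay 56 kb inside the 3′ end, near 91984334 to 91985026, and the other 29.8 kb upstream of the start. The unshared AML site lay 20.6 kb upstream. By position alone, 5 AML and 10 myeloid midpoints fell inside the body of Hdac4, of which 4 AML and 6 myeloid sites were over 100 kb from any protein-coding gene end and so counted for no gene. Hdac7 had 1 AML site (0.126 expected) and 3 myeloid sites (0.354 expected), all inside the gene. Its AML site, 19.3 kb from the start, was shared, and 1 of the others covered an inner annotated start. Hdac9 had 1 site in each list, which overlapped, about 32 kb upstream of its start. Inside its body of 870 kb lay 2 further AML and 3 further myeloid sites, all over 100 kb from any protein-coding gene end and therefore not counted. Hdac5 had 2 myeloid sites, 1 of them over its start.

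The other deacetylase genes had 1 site among them. Hdac1, a class I gene, had a single myeloid site 147 bp from a gene end (chromosome 4, 129542428 to 129543158). Hdac2, Hdac3, Hdac6, Hdac8, Hdac10 and Hdac11 had none. Their territories differ widely, so that a count of 0 carries little information for Hdac10 (0.0645 myeloid sites expected) and Hdac3 (0.189), and more for Hdac2 (1.65). For Hdac8 2.23 were expected, but the expectation takes the same rate for all chromosomes. Hdac8 lies on X, and 13.8% of the protein-coding genes of X and Y had a myeloid site, beside 40.0% of all protein-coding genes.

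**Figure D3:**
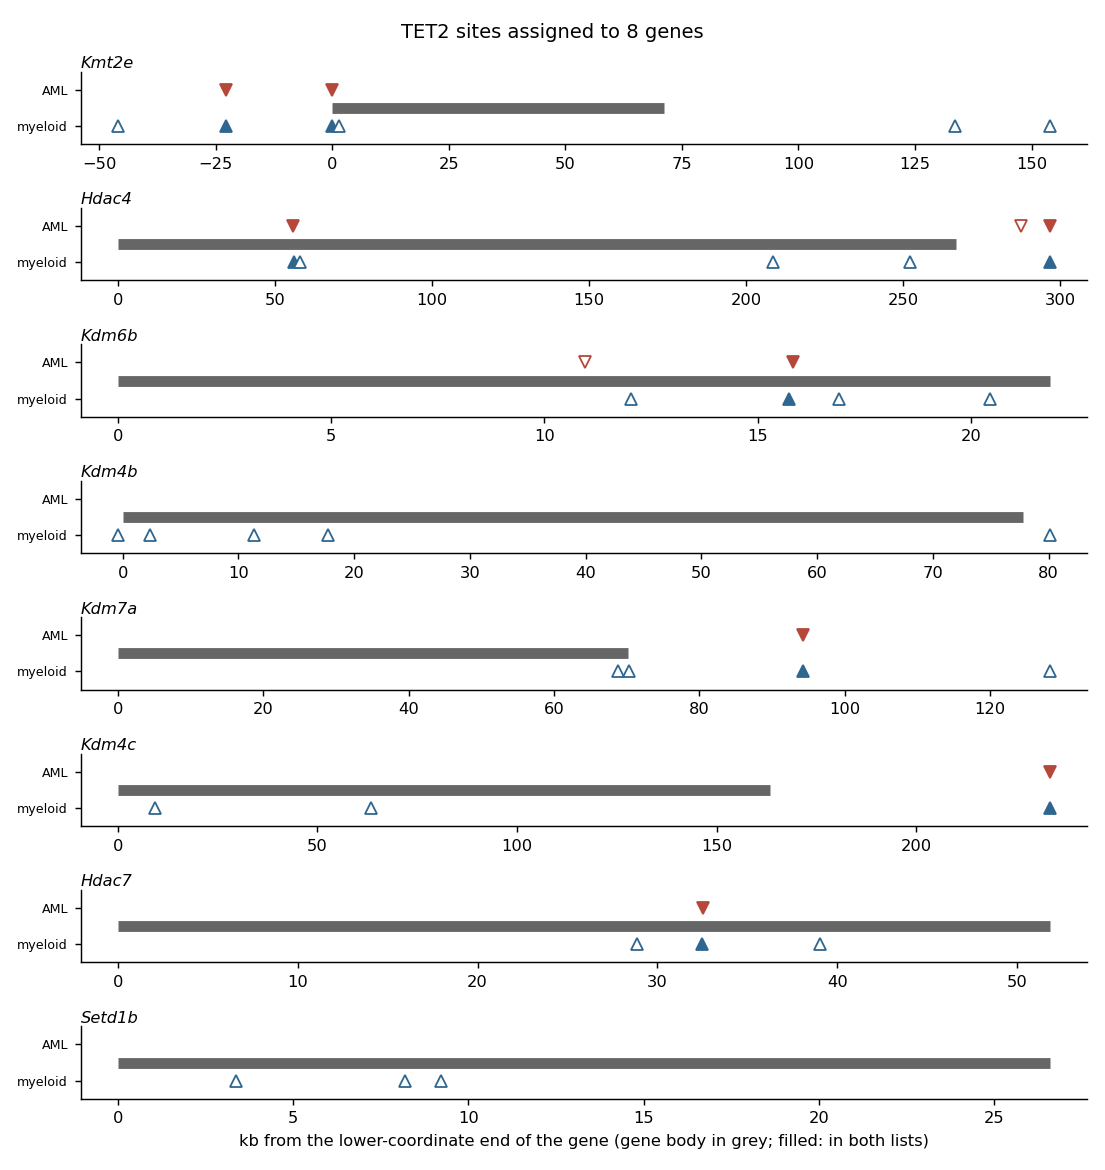
Positions of TET2 sites assigned to 8 genes, in kb from the lower-coordinate end of each gene; the grey bar is the gene body. Red triangles above are AML sites and blue triangles below are myeloid sites, filled where the site overlaps one of the other list. Kdm6b and Hdac7 hold all of their sites within the gene, whereas Kmt2e has 1 of its 6 myeloid sites inside, 1 over an end and 4 farther outside.

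In all, 16 genes had no site in either list: Kdm1a, Kdm4d, Kdm5c, Kdm5d, Kdm6a, Kmt5c, Setd2, Setd6, Kat2a, Kat8 and the 6 deacetylase genes named above. This is 16 of 54, where 57.9% of all protein-coding genes had none. Every member on a sex chromosome was among them (Kdm5c, Kdm6a, Hdac6 and Hdac8 on X, Kdm5d on Y). Of the 1222 protein-coding genes of X and Y, 13.8% had a myeloid site and 5.81% an AML site. Kdm6a, which encodes the H3K27 demethylase UTX, had 1.95 myeloid sites expected from its territory of 193 kb, at a rate taken over all chromosomes. Kdm1a, which encodes LSD1, had 0.729 expected. Kdm4d is listed without a site, but a myeloid site lay over one of its annotated starts and was counted for a nearer gene.

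Myeloid sites of these genes often lay at a gene end, and the AML sites did not. An assigned site within 1 kb of an annotated start or end was found at 22 of the 54 genes in the myeloid list (40.7%, 27.6 to 55.0), beside 18.6% of all genes. In the AML list 1 gene had such a site (1.85%, 0.0469 to 9.89), beside 2.74%. By role the myeloid numbers were 11 of 16 methyltransferase genes, 6 of 18 demethylase genes, 3 of 9 acetyltransferase genes and 2 of 11 deacetylase genes. Counted over sites, 28.2% of the members' 78 myeloid sites were at an end (18.6 to 39.5), against 24.8% of all assigned myeloid sites. In the AML list 5.56% of 18 sites were (0.141 to 27.3), against 9.99%. The share of sites was thus near the background, while more of these genes had such a site.

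Where a gene's orientation was given, the occupied end was almost always its 5′ boundary. Distances from a start given above are also from this boundary. Of the 22 myeloid end sites, 15 were nearest to the 5′ boundary of the gene and 1 to the 3′ boundary (Kmt2d). The other 6 belonged to genes without an annotated start in the promoter table. An annotated start was covered by 8 of the 22. At Setd5, for example, the annotated start, at 113104935, lay well inside the gene and away from the site. This split was not made for all genes, so whether it is particular to these genes was not tested. At 4 of the 22, an end of another gene was also within 1 kb, as at Kdm1b with Tpmt and at Kmt2b with Zbtb32. Annotated starts were available for 42 of the 54 genes. A myeloid site covered a start of 12 of them, 1 of which was Kdm4d, beside 19.2% of the 17492 protein-coding genes with a start. An AML site covered a start of 0 of them, beside 1.73%. A gene counted here if any of its starts was covered. The 42 members had 60 listed starts, and the 17492 genes had 21263, so members had more starts per gene. The shares were not adjusted for this. Of the 12 myeloid sites counted for a member that covered a start, 4 lay over an inner start and not at the end of the gene (Hdac7, Kat5, Kdm4c and Kmt5a).

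The 250 bases before the start are shown for 1 gene per role, and for Kat8, whose start has no site in either list. In each gene shown for a role, a myeloid site covered an annotated start that is also the outer boundary of the gene. They are not always the genes of their role with most sites. Capitals mark matches on either strand to TGTGGT (RUNX), GGAAGT (ETS), TTGCNNAA (C/EBP), TGANTCA (AP-1), CACGTG (E-box), GGGCGG (SP and KLF), GCATGCG (NRF1) or ATGGCGG (YY1). Sequences run 5′ to 3′ on the strand of the gene and are from RefSeq, build GRCm38.p6.
Kdm7a (minus strand, chr6:39206774-39207023): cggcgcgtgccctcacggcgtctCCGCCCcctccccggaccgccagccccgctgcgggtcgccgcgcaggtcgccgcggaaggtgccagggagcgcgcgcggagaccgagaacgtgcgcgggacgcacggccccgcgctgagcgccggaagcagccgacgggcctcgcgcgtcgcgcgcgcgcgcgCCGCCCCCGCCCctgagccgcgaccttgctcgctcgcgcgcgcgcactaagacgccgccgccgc
Kmt5a (plus strand, chr5:124439680-124439929): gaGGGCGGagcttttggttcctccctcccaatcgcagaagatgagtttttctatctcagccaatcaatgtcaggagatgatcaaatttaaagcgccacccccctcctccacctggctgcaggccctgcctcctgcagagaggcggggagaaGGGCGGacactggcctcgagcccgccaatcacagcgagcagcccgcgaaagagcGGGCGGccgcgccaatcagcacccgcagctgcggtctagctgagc
Kat7 (minus strand, chr11:95310247-95310496): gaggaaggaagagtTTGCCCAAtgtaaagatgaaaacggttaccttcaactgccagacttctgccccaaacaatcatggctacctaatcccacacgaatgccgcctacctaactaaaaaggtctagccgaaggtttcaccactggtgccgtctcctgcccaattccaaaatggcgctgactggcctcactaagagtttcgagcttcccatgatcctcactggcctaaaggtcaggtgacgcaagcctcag
Hdac5 (minus strand, chr11:102230173-102230422): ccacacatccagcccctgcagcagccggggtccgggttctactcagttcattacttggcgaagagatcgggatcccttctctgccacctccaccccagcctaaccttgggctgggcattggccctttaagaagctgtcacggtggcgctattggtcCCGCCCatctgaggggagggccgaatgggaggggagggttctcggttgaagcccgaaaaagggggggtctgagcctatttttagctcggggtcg
Kat8 (plus strand, chr7:127912267-127912516): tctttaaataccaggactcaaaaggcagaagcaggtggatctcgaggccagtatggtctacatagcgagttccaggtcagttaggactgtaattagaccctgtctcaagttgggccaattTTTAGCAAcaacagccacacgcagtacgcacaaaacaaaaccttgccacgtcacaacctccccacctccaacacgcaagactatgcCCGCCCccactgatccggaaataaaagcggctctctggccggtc

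These upstream sequences were unlike each other. CG dinucleotides numbered 22.4 per 100 bases before Kdm7a, 6.4 before Kmt5a, 4.8 before Hdac5, 4 before Kat8 and 3.2 before Kat7. The GGGCGG match occurred 3 times each before Kdm7a and Kmt5a and 1 time each before Hdac5 and Kat8. A TTGCNNAA match occurred before Kat7 and before Kat8. Over the 60 annotated windows of 42 members (250 bases before to 50 after a start), the median was 7.33 CG per 100 bases, against 4.33 over 21263 windows of protein-coding genes. In the 16 member windows with a myeloid site over the start it was 9.67 (4.67 to 21.7), and in the other 44 it was 6.83. Over all genes, windows with such a site had a median of 8. GGGCGG was present in 12 of the 16 and in 25 of the 44, beside 46.2% of all windows and 69.6% of all windows with a myeloid site over the start. GGAAGT was present in 5 of the 16 and 5 of the 44, beside 24.8% and 37.6%. TGTGGT and TGANTCA were present in 0 of the 16 and in 8 of the 44 each, beside 15.0% and 6.99% of all windows. Of all windows with a myeloid site over the start, 13.8% held TGTGGT and 4.60% held TGANTCA. At such shares, 0 of 16 windows carries little information. Several windows belong to 1 gene or overlap, so these numbers are descriptions and were not tested.

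Distances to the nearest gene end were then set beside those of all assigned sites. The 78 myeloid sites had a median distance of 7.08 kb from the nearest gene end (lower and upper quartile 0.910 and 18.4 kb), against 7.56 kb (1.03 and 24.0) for all assigned myeloid sites. For the 18 AML sites this distance was 15.1 kb (8.73 and 23.8), against 13.0 kb (4.14 and 32.1). Sites over 10 kb from any gene end made up 11 of the 18 AML sites (61.1%, against 56.8% of all assigned AML sites) and 30 of the 78 myeloid sites (38.5%, against 44.5%). Of the myeloid sites, 45 lay inside the member gene, 5 inside another gene alone and 28 between genes. Of the AML sites, 6 lay inside the member gene and 12 between genes. Thus 64.1% of the members' myeloid sites lay inside a protein-coding gene, against 55.3% of all assigned myeloid sites, and 33.3% of the members' AML sites, against 52.1%. These differences were not tested. The shares leave out sites over 100 kb from any gene end, for members and for all genes. Inside Hdac4 lay 4 AML and 6 myeloid sites of that kind, and inside Hdac9 2 and 3. By position alone, 12 AML midpoints fell inside a member, of which the 6 above were counted. Site widths gave no contrast, with medians of 748 bp (AML) and 715 bp (myeloid), against 721 and 709 bp for all sites.

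**Figure D4:**
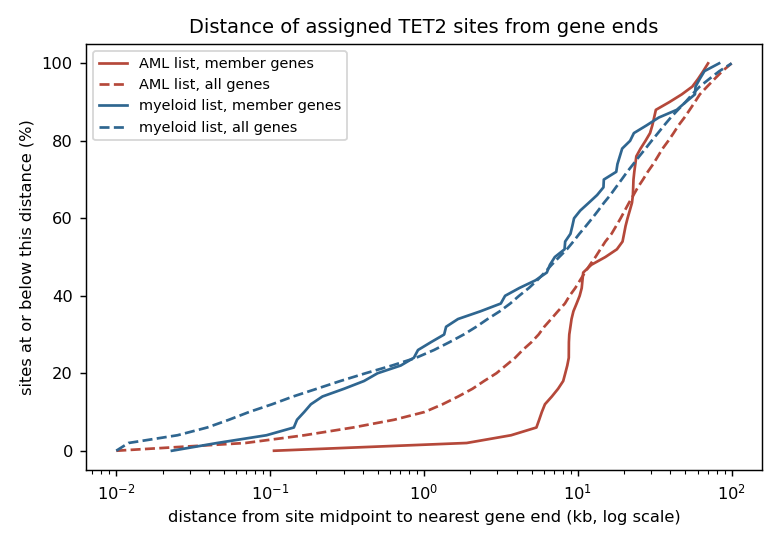
Cumulative percent of assigned TET2 sites by distance from the site midpoint to the nearest gene end, in kb on a log scale. Solid lines are sites of the 54 genes and dashed lines sites of all protein-coding genes; red is the AML list and blue the myeloid list. The members' median is 15.1 kb for AML sites and 7.08 kb for myeloid sites.

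Most AML sites of these genes were also myeloid sites. Of the 18, 14 overlapped a myeloid site by at least 1 bp (77.8%, 52.4 to 93.6), close to the 72.6% of all assigned AML sites. Conversely 14 of the 78 myeloid sites overlapped an AML site (17.9%, 10.2 to 28.3), against 25.8% of all assigned myeloid sites. Sites at gene ends were shared in 2 of 22 cases and the remaining myeloid sites in 12 of 56. Over all genes those shares were 11.9% and 30.4%. The 4 unshared AML sites were at Hdac4, Kdm2b, Kdm6b and Kmt5b. Their gaps to the nearest myeloid site were 8.45 kb, 24.2 kb, 371 bp and 18.1 kb.

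No member differed between the cell types by the test that the lists allow. For each gene with at least 5 unshared sites, AML-only and myeloid-only sites were compared with those of all other genes by a two-sided Fisher's exact test, with Benjamini-Hochberg adjustment over the 344 genes tested. Of these, 3 passed at an adjusted p under 0.05 (0.872%), and none was a member. Kdm4b was the 1 member with enough sites, with 0 AML-only and 5 myeloid-only sites (Fisher's exact test, unadjusted p = 1, adjusted p = 1). At an unadjusted p under 0.05 the number of members was also 0, beside 20 of the 344 genes tested (5.81%). Since 12721 of the unshared sites were myeloid-only and 1666 AML-only, 5 sites of 1 kind are too few to show a lean to the myeloid list, and the result does not show that the cell types are alike.

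TET2 sites were also found at genes that act beside these enzymes but fall outside the symbol rule. Of 105 such genes, 68 had a myeloid site and 31 an AML site (64.8% and 29.5%, beside 40.0% and 18.6% of all genes). They held 141 and 53 sites, where 83.6 and 29.7 were expected. Among 24 genes of deacetylase complexes, 17 and 7 had a site. Mta3, a subunit gene of the NuRD complex, had 2 AML sites and 7 myeloid sites. Among 16 genes of methyltransferase complexes 9 and 5 had a site. Eed, a subunit gene of Polycomb repressive complex 2, had 4 AML and 5 myeloid sites, and Wdr5, a subunit gene of the Kmt2 complexes, had 3 and 5. Among 19 genes of acetyltransferase complexes 15 and 6 had a site, with 3 and 4 sites at Kansl1 and 1 and 3 at Ing3.

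The remaining enzyme families of that list varied. Of 18 other lysine methyltransferase genes 8 had a myeloid site and 5 an AML site, led by Prdm2 (1 AML site, 6 myeloid sites) and Nsd3 (1 and 3). Of 9 arginine methyltransferase genes 4 and 2 had a site, with 1 and 3 at Prmt5 and 1 and 2 at Prmt8. Of 7 sirtuin genes, which encode NAD-dependent deacylases, 6 and 1 had a site, with 2 myeloid sites each at Sirt3 and Sirt4. Of 7 other demethylase or JmjC genes 5 and 3 had a site, with 3 AML and 4 myeloid sites at Jmjd1c and 1 of each at Jmjd6. Of 5 other acetyltransferase genes 4 and 2 had a site, with 1 AML site and 2 myeloid sites at Ncoa2 and 1 of each at Naa60. No difference between these families and the 54 genes was tested.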

How the data were processed

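Trimmomatic, Bowtie2, MACS2 and the mm10 build are named in the submitters' processing notes, and the sources used here do not say how the libraries entered the calls. Per the file headers, the authors deposited a chromosome, start and end per site and no count or score, so depth is unknown. Overlapping rows within a list were joined (7002 AML rows gave 6895 sites, with 1 row on an unplaced contig left out; 19706 myeloid rows gave 18822). Whether positions count from 0 or 1 is not stated. Gene positions came from RefSeq (GRCm38.p6), and strand and starts from its promoter table, which matched 42 of the 54 members. Within 100 kb of a gene, 6086 AML and 17141 myeloid sites were assigned. Python 3.11.15, pandas 2.3.3 and SciPy 1.17.1 were used, and the steps were tested on simulated data.

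Members, lists, motifs and tests were chosen with earlier results of these data known. The naming rule took, per role, the 4 members with most sites, members with an AML site, with at least 3 myeloid sites or with end sites in both lists, and 2 related genes per family, of which 1 is not reported here. Further members were named after their values were seen. The rule for promoters (a site over the start in both lists) found 0, so those shown were chosen after the data were seen. Alternatives changed the assignment limit, competing genes, gene end distance, overlap and merging.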

Additional observations from a re-analysis of the deposited data

How the results depend on the processing

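Of 38 alternatives computed for the 9 results, 36 left the value within 1.5 times (counts) or inside the 95% interval (shares). When all annotated genes, non-coding ones included, competed for a site, members with at least 1 AML site numbered 6 in place of 12. This was 11.1% of members, beside 12.7% of protein-coding genes. Under the same setting 31 members had a myeloid site (57.4%, beside 32.9% of protein-coding genes). At a gene end 17 had one (31.5%, beside 17.6%). With gene starts alone, which leaves out Kmt2e because the promoter table has no start for it, members with an AML site at an end numbered 0 in place of 1. With starts alone, 26 of the 42 members with an annotated start had a myeloid site, and under the other settings 31 to 38 of 54 did. Members with a myeloid site at an end numbered from 16 (limit of 0.5 kb) to 24 (limit of 2 kb). Shares of all genes were not computed for starts alone or for the changed limits. The counts of members there do not show whether the difference from the background holds. With at least 3 unshared sites per gene, Fisher's exact test covered 7 members among 1451 genes. Of all genes tested 3 passed, and of the members 0 (0 also at an unadjusted p under 0.05). Of the 7 members, Kat2b, Kdm4b, Kdm7a, Kmt2e and Setd1b had 0 AML-only sites. Their few myeloid-only sites could not show a lean, because most unshared sites of all genes were myeloid-only. No paired analysis was possible because the lists hold no value per library. The higher-scoring part of each list was not run, since sites carry no score. Leaving out replicates was not possible for the same reason as pairing.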
